A study of Mus musculus with 12 samples.

Results

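The nuclear genes of oxidative phosphorylation, complexes I to V, were followed through the conversion of mouse fibroblasts to pluripotent cells in 12 RNA-seq libraries. Members were the protein-coding genes of GENCODE M21 whose symbols name subunits of complex I (Nduf genes), complex II (Sdh genes), complex III (Uqcr genes), complex IV (Cox genes of subunits 4 to 8) and complex V (Atp5 genes). They were 85 gene IDs with 84 symbols, of the 40384 gene IDs in the table: 37 in complex I, 4 in complex II, 8 in complex III, 18 in complex IV and 18 in complex V. FPKM of at least 1 in at least 3 libraries was reached by 83 of them, and Cox8b and Cox8c were not tested.

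The 4 groups had n = 3 libraries each, and all came from cells described with a common source, fibroblasts of mid-gestation male homozygous 4F2A embryos, and a common medium with LIF and doxycycline at 2 μg/mL. 4F2A cells carry doxycycline-inducible transgenes for Oct4, Sox2, Klf4 and Myc. The iPSC group held induced pluripotent stem cells. D4_DUX was day 4 of reprogramming with the treatment OE-DUX, in which DUX was overexpressed for 48 h, and D4 was day 4 with the treatment OE-NC. MEF was the embryonic fibroblast group. The same protocol text, doxycycline included, is attached to all 4 groups, and whether the MEF cultures received doxycycline is not given apart from it.

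Oxidative phosphorylation passes electrons from NADH through complex I, or from succinate through complex II, to coenzyme Q, then through complex III and cytochrome c to complex IV, which reduces oxygen. Complexes I, III and IV pump protons, and complex V, the ATP synthase, uses the proton gradient to make ATP. Pluripotent cells are known for high glycolysis with an assembled respiratory chain, and some subunits of complex IV exist as tissue or testis isoforms that replace a widely expressed one. Complexes I, III, IV and V also hold subunits encoded by mitochondrial DNA; 0 of the 13 such genes were in the table, and they were not analysed here.

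Depth was 22528000 to 28131000 counted fragments per library, as recovered from the steps of the FPKM values. A value of 0 allows up to 3 fragments, a limit that covers counting error only. Duxf3, the mouse Dux gene, had 0 FPKM in all 3 libraries labelled D4_DUX and at most 1.75 fragments in any library, so the overexpression was not visible in this gene and the group is called by its label. The 10 pluripotency markers summed to 1350 to 1504 FPKM in iPSC libraries and to at most 1.65 FPKM in every other library. The 10 fibroblast markers summed to 760 to 987 FPKM in iPSC libraries, against 5700 to 5826 FPKM in MEF libraries. Of the 10 markers, 8 were lower in iPSC against MEF and 2 higher, with a median of -1.64. Of all genes tested, 31.2% were lower and 51% higher in this comparison. The collagen genes Col1a1, Col1a2 and Col3a1 carried most of the MEF sum, with 3009 to 3083 FPKM for Col1a1. Twist2 was higher in iPSC libraries, as was Dcn, a matrix proteoglycan of fibroblasts. Dcn had 194 to 226 FPKM in iPSC against 176 to 197 FPKM in MEF libraries, so these groups overlapped. The 12 macrophage markers summed to 129 to 170 FPKM in iPSC, 43.0 to 44.6 FPKM in D4_DUX, 173 to 207 FPKM in D4 and 1505 to 1546 FPKM in MEF libraries. The part of these other cells in the members' values was not tested, and in bulk RNA fewer cells of a type cannot be told apart from less RNA per cell.

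Across the 83 tested members, MEF was most often the group with the lowest mean FPKM, with 59 members (71.1%), compared with 32.6% of the 17114 genes tested. The mean was highest in iPSC for 42 members (50.6%), near the 47.4% of all genes tested. It was highest in D4_DUX for 14 members, in D4 for 23 and in MEF for 4. These 4 were Ndufa4l2, Ndufv3, Cox6a2 and Cox7a2l. The map of the tested members shows each library against the member's own mean.

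**Figure D1:**
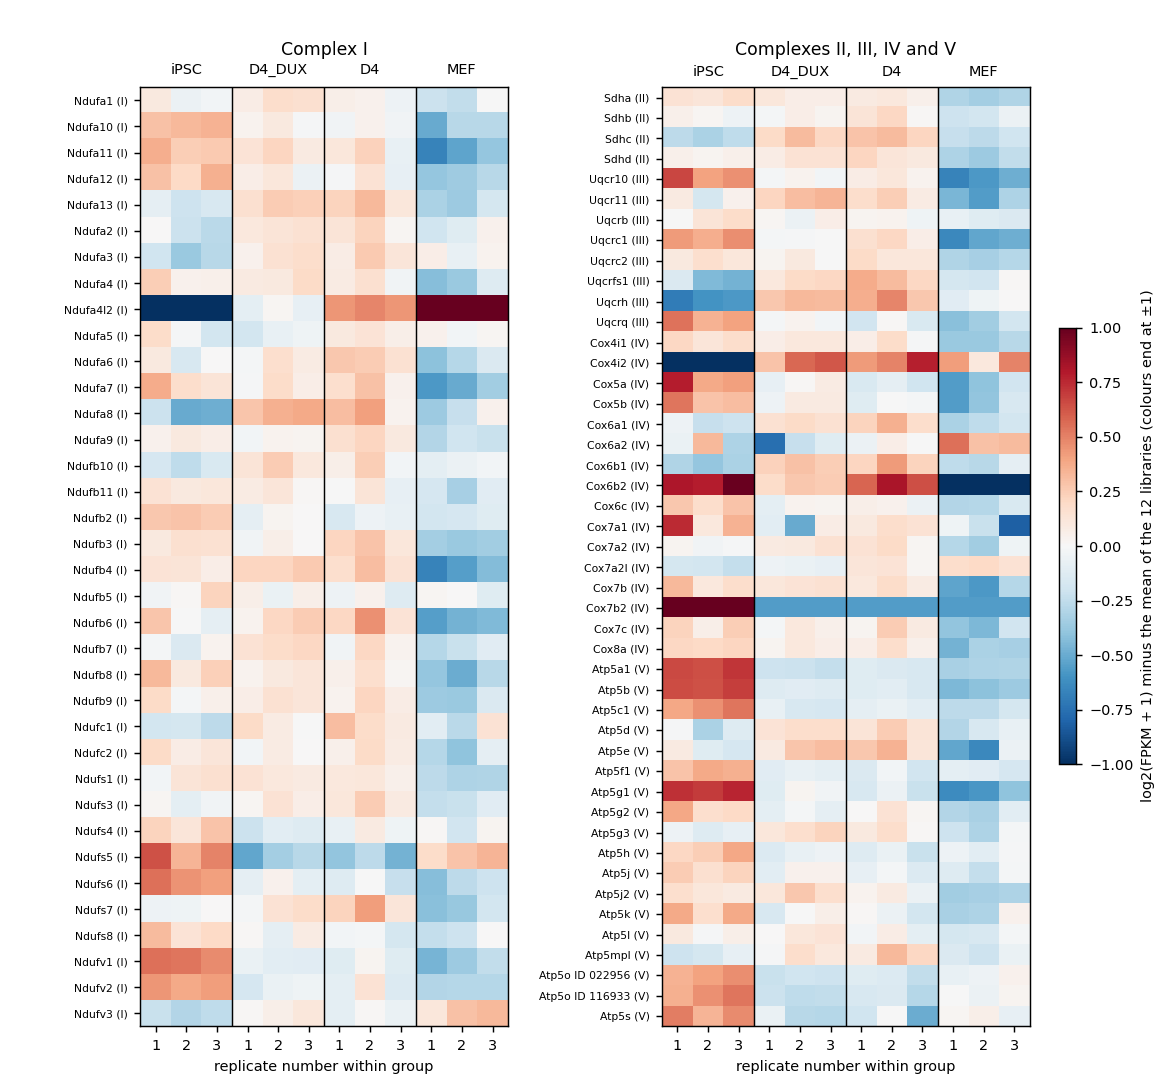
Each row is 1 tested member with its complex in parentheses, with 1 member of complex I not drawn, and each column is 1 library, with n = 3 per group; colour is log2(FPKM + 1) minus the row's mean over the 12 libraries. Ndufa4l2, Cox4i2, Cox6b2 and Cox7b2 go past the ends of the colour scale at ±1, and all other members drawn stay within it in every library.

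Differences below are log2 fold changes on log2(FPKM + 1), written after the FPKM values with the SE of the limma fit, and calls were made where the p adjusted by Benjamini and Hochberg across the 17114 genes fell below 0.05. FPKM is per exon length, so levels of different genes are set side by side on that scale only. The D4 libraries serve in 3 of the 4 comparisons and the MEF libraries in 2, so the comparisons are not independent of each other. The SE of a member's difference had a median of 0.06 and ranged between 0.03 and 0.21.

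D4 against MEF asks what changed in the first 4 days of reprogramming. Subunit genes of all 5 complexes were mostly higher at day 4. Of the 83 members, 57 were higher and 5 lower, 74.7% in all, where 61.8% of all genes tested were called. Higher calls took 68.7% of the members and 34.2% of all genes, and lower calls 6.02% and 27.6%. The median difference of the members was 0.32, and that of all genes was 0.03. The libraries of both groups did not overlap for 62 members, beside 66.5% of all genes. The count of higher and lower calls was 26 and 3 of 37 in complex I, 4 and 0 of 4 in complex II, 7 and 0 of 8 in complex III, 10 and 0 of 16 in complex IV, and 10 and 2 of 18 in complex V. The medians were 0.29, 0.42, 0.43, 0.38 and 0.16 for complexes I to V in that order.

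iPSC against MEF spans the whole conversion. Of the members, 61 were higher and 7 lower, 81.9% in all, beside 82.2% of all genes tested. Higher calls took 73.5% of the members and 51% of all genes, and lower calls 8.43% and 31.2%. The groups did not overlap for 65 members, beside 82.4% of all genes. The median difference was 0.38 in the members and 0.21 in all genes. Scaling libraries by the median ratio lowered the all-gene median to 0.06 and that of the members to 0.20, with 48 members higher and 18 lower. Quantile normalization gave medians of -0.07 for all genes and 0.17 for the members, with 42 higher and 16 lower. The count of higher and lower calls was 26 and 3 in complex I, 3 and 0 in complex II, 6 and 2 in complex III, 11 and 2 in complex IV, and 15 and 0 in complex V. The medians were 0.31, 0.25, 0.43, 0.52 and 0.44 for complexes I to V in that order. Differences of iPSC are therefore best read against an all-gene shift of 0.21.

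iPSC against D4 showed no common direction. Of the members, 30 were higher and 25 lower, 66.3% in all, beside 82.4% of all genes tested. Higher calls took 36.1% of the members and 48.5% of all genes, and lower calls 30.1% and 33.9%. The groups did not overlap for 56 members, beside 82.4% of all genes. The median was 0.06 in the members and 0.16 in all genes. Median-ratio scaling gave 24 higher and 35 lower members, and quantile normalization gave 24 higher and 36 lower, so the balance between higher and lower members turned with the scaling. The complexes differed in their counts: complex V had 12 higher and 4 lower with a median of 0.40, whereas complex I had 10 and 12 with a median of -0.03. Complex II had 0 and 2, complex III 3 and 3, and complex IV 5 and 4.

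D4_DUX against D4 asks what the OE-DUX treatment changed at day 4. Few subunit genes differed. In libraries labelled D4_DUX 1 member was higher and 6 were lower, 8.43% in all, beside 35.4% of all genes tested, of which 20.1% were higher and 15.4% lower. The groups did not overlap for 19 members, beside 50.5% of all genes. The median difference was -0.00 in the members and 0.02 in all genes. For 79 of the 83 members the difference was within 0.2 on the log2 scale in either direction. The other 4 were Ndufa4l2, Cox6b2, Cox6a2 and Cox7a1, all of them isoforms. Of these, Ndufa4l2 and Cox6b2 were called lower. Cox6a2, with 0 to 13 fragments in the D4_DUX and D4 libraries, and Cox7a1, with 10 to 22.75 fragments, were not called. Markers of other cells differed beside them: the fibroblast sum was 2522 to 2600 FPKM in D4_DUX against 3276 to 3391 FPKM in D4 libraries, with 5 of the 10 markers lower and 0 higher, and 11 of 12 macrophage markers were lower in libraries labelled D4_DUX. The 5 lower fibroblast markers were Col1a1, Col1a2, Col3a1, Pdgfra and Lum. Dcn overlapped, at 260 to 270 FPKM in D4_DUX against 258 to 279 FPKM in D4 libraries, and Prrx1, at 89.0 to 90.1 FPKM against 83.4 to 87.7 FPKM, was not called. The part of these cells in the members' differences was not tested.

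**Figure D2:**
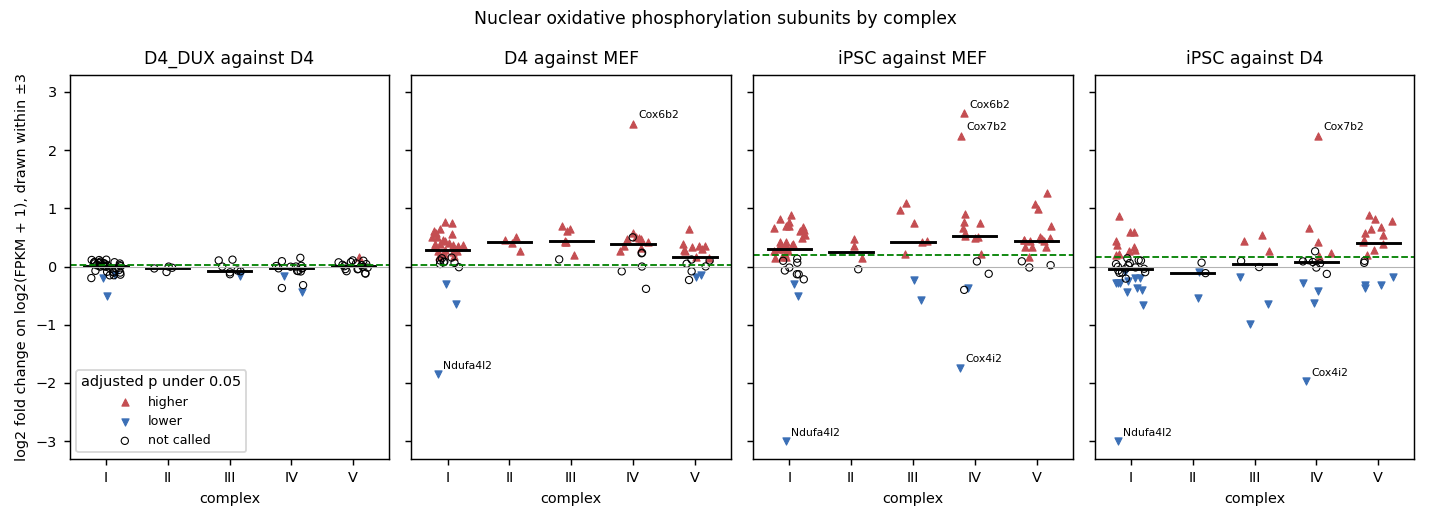
Each point is 1 member, by complex, in each of the 4 comparisons; the y axis is the log2 fold change on log2(FPKM + 1), drawn within ±3, which cuts off Ndufa4l2 in 2 panels (-5.01 for iPSC against MEF and -3.16 for iPSC against D4). Upward triangles were called higher and downward triangles lower, black bars are the median of a complex, and the dashed line is the median of all genes tested. The bars lie near 0 for D4_DUX against D4, and above the dashed line for all 5 complexes in D4 against MEF and in iPSC against MEF.

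The largest differences belonged to isoforms. Ndufa4l2, at chromosome 10, positions 127514967 to 127517154 (GRCm38, plus strand), encodes a paralog of Ndufa4 that hypoxia is known to induce and that is known to lower respiration. Ndufa4 itself was first assigned to complex I and is now counted as a subunit of complex IV. Ndufa4l2 had 1.139, 1.031 and 1.121 FPKM in iPSC libraries, 11.7, 12.9 and 11.95 FPKM in libraries labelled D4_DUX, 17.6, 18.1 and 17.6 FPKM in D4 libraries, and 70.5, 68.2 and 61.2 FPKM in MEF libraries. No 2 of the 4 groups overlapped. Ndufa4l2 fell by 1.85 ± 0.05 in D4 against MEF (adjusted p = 1e-10) and by 5.01 ± 0.05 in iPSC against MEF (adjusted p = 1.3e-14). It fell by 0.51 ± 0.05 in libraries labelled D4_DUX against D4 (adjusted p = 3.6e-05), the member with the smallest p in that comparison. Its iPSC mean was 1.65% of its MEF mean. The part of remaining fibroblasts in these values was not tested.

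Ndufa4 had 69.5, 60.3 and 60.6 FPKM in iPSC, 62.4, 62.7 and 67.2 FPKM in D4_DUX, 62.0, 65.5 and 57.0 FPKM in D4, and 43.4, 45.1 and 53.6 FPKM in MEF libraries. It rose by 0.37 ± 0.08 in D4 against MEF (adjusted p = 0.002) and by 0.42 ± 0.08 in iPSC against MEF (adjusted p = 0.00056). The share of Ndufa4l2 in the summed FPKM of the pair was 1.70% in iPSC, 15.99% in D4_DUX, 22.5% in D4 and 58.5% in MEF libraries on average. Ndufa4 thus made up nearly all of the pair in iPSC libraries, and Ndufa4l2 the larger part in MEF libraries. Ndufa4l2 shares 32 exon bases with Shmt2 on the opposite strand, and no source used here says whether strand was used in counting.

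Cox6b2 is the testis isoform of Cox6b1, a subunit on the intermembrane face of complex IV. It lies at chromosome 7, positions 4751792 to 4753094 (GRCm38, minus strand). Cox6b2 had 45.0, 44.0 and 51.0 FPKM in iPSC, 28.8, 30.6 and 30.3 FPKM in libraries labelled D4_DUX, 38.1, 45.0 and 39.8 FPKM in D4, and 6.04, 6.90 and 7.04 FPKM in MEF libraries. The lowest D4 library was more than 5 times the highest MEF library, so the higher level was already present at day 4. Cox6b2 rose by 2.45 ± 0.07 in D4 against MEF (adjusted p = 1.7e-10) and by 2.64 ± 0.07 in iPSC against MEF (adjusted p = 2.2e-11). It fell by 0.44 ± 0.07 in libraries labelled D4_DUX against D4 (adjusted p = 0.00097), without overlap. Its rise of 0.18 ± 0.07 in iPSC against D4 (adjusted p = 0.039), with overlapping groups, was lost under 7 of the 17 alternatives. The 12 germ-line markers, of which 8 reached the filter, summed to 95.1 to 104 FPKM in iPSC and 0.462 to 0.902 FPKM in D4_DUX libraries. They summed to 0.531 to 0.838 FPKM in D4 and 1.15 to 1.52 FPKM in MEF libraries, and their part in Cox6b2 was not tested.

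Cox6b1 had 108 to 115 FPKM in iPSC, 166 to 174 FPKM in D4_DUX, 165 to 191 FPKM in D4 and 116 to 133 FPKM in MEF libraries. It rose by 0.50 ± 0.06 in D4 against MEF (adjusted p = 3.2e-05) and fell by 0.62 ± 0.06 in iPSC against D4 (adjusted p = 2e-06). The share of Cox6b2 in the pair was 29.4% in iPSC, 15.0% in D4_DUX, 19.11% in D4 and 5.16% in MEF libraries. All 4 comparisons were free of overlap in this share, with an exact two-sided permutation p of 0.1, the smallest that 3 against 3 allows. Of the 40 share comparisons computed over 10 isoforms, 25 were free of overlap, and none can pass a threshold of 0.05.

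The promoters of the pair are shown because the isoforms moved differently. RefSeq windows of GRCm38.p6 hold 250 bases before to 50 after the gene's start, on the gene's strand. Capitals mark CCAAT or its reverse complement ATTGG, and the ETS letters CCGGAAG or their reverse complement CTTCCGG. Cox6b2 (chr7:4753045-4753344, minus strand) holds CCAAT letters 3 times and 10 CpG. Cox6b1 (chr7:30626065-30626364, minus strand) holds CCAAT letters 3 times, the ETS letters once and 17 CpG. Cox7b2, described next (chr5:71548156-71548455, minus strand), holds CCAAT letters 3 times and 10 CpG. The NRF1 letters (GCGCA, any base, GCGC) and the YY1 letters AAGATGGC are not in these 3 windows.
Cox6b2: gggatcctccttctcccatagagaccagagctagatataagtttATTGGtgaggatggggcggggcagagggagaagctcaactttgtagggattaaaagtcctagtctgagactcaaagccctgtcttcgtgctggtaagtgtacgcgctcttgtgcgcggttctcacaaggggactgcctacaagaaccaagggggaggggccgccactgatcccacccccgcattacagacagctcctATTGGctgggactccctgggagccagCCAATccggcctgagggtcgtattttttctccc
Cox6b1: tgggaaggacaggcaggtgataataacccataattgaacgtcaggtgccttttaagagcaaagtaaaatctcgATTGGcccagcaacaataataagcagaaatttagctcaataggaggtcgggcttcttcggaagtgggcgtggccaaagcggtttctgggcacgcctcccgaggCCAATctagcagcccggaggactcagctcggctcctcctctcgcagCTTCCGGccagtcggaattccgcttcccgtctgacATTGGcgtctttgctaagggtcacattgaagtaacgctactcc
Cox7b2: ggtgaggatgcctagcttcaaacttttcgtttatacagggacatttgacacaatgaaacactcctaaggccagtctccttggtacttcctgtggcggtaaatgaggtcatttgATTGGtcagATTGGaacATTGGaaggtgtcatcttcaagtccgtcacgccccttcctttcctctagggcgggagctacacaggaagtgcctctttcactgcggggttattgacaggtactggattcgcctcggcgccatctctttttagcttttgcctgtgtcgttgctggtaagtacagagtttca

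Cox7b2, the testis isoform of Cox7b, was detected in iPSC libraries alone. It lies at chromosome 5, positions 71442824 to 71548205 (GRCm38, minus strand). It had 3.07, 4.36 and 3.93 FPKM in iPSC libraries, from 40, 57 and 56 fragments, and 0 in all 9 other libraries. Cox7b2 thus reached the filter through iPSC libraries alone. The filter settled its direction, and it adds no support to the counts of members higher in iPSC, which include it. Against the floor of 3 fragments per library, the iPSC mean was at least 15.4-fold higher than MEF and at least 15.4-fold higher than D4. It made up 4.08% of the Cox7b and Cox7b2 sum in iPSC libraries. Cox7b was far above it, with 84.2 to 97.7 FPKM in iPSC, 84.5 to 86.9 FPKM in D4_DUX, 82.8 to 89.0 FPKM in D4 and 52.2 to 63.9 FPKM in MEF libraries. Cox8c, another testis isoform, had 7, 0 and 3 fragments in iPSC libraries and 0 in the other libraries, too few to test. The sum of the germ-line markers was also higher in iPSC libraries than elsewhere, as given above, but not every marker followed. Prm1 and Tnp1 were under 3 fragments in every iPSC library. Prm1 had 0.0484 to 0.145 FPKM in iPSC against 0.0652 to 0.366 FPKM in D4_DUX libraries. The part of these markers in Cox7b2 was not tested.

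Cox4i2, the lung and oxygen-responsive isoform of subunit 4 (chromosome 2, positions 152754173 to 152765037, plus strand), was low throughout and lowest in iPSC. It had 0.237, 0.210 and 0.725 FPKM in iPSC, 3.41, 4.39 and 4.56 FPKM in D4_DUX, 3.86, 4.11 and 5.20 FPKM in D4, and 3.83, 2.89 and 4.10 FPKM in MEF libraries. The iPSC libraries lay below all others, with 4 to 15 fragments, and the other 3 groups overlapped. It fell by 1.74 ± 0.16 in iPSC against MEF (adjusted p = 7.1e-07) and by 1.97 ± 0.16 in iPSC against D4 (adjusted p = 2.2e-07). Cox4i1, the widely expressed form, had 191 to 203 FPKM in iPSC, 184 to 189 FPKM in D4_DUX, 174 to 200 FPKM in D4 and 135 to 145 FPKM in MEF libraries. It rose by 0.42 ± 0.05 in D4 against MEF (adjusted p = 1.5e-05) and by 0.51 ± 0.05 in iPSC against MEF (adjusted p = 1.2e-06). Pericyte and smooth muscle markers, cells in which Ndufa4l2 and Cox4i2 are also known to be expressed, summed to 125 to 161 FPKM in iPSC, 362 to 366 FPKM in D4_DUX, 448 to 480 FPKM in D4 and 902 to 1017 FPKM in MEF libraries. Acta2 carried most of the sum, with 711.5 to 807.9 FPKM in MEF libraries. Of the 11 markers 7 were tested. In iPSC against MEF 5 were lower and 2 higher, beside 31.2% and 51% of all genes. In D4 against MEF 3 were higher and 3 lower, beside 34.2% and 27.6% of all genes. Higd1b was under 3 fragments in all 12 libraries, and the part of such cells was not tested.

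The heart and muscle isoforms were near the limit of detection. Cox7a1 had 3.03, 1.59 and 2.06 FPKM in iPSC, 1.23, 0.696 and 1.52 FPKM in D4_DUX, 1.58, 1.71 and 1.65 FPKM in D4, and 1.33, 1.05 and 0.365 FPKM in MEF libraries. All iPSC libraries lay above all MEF libraries, from 20.5 to 39 fragments against 5.5 to 16 fragments. Cox7a1 rose by 0.76 ± 0.21 in iPSC against MEF (adjusted p = 0.0056), with an adjusted p of 0.063 after quantile normalization. Cox6a2 had 0 to 1.47 FPKM over the 12 libraries, from at most 22.5 fragments, and was called in no comparison. Cox8b had at most 2.5 fragments in any library. The 18 striated muscle markers summed to 79.9 to 88.1 FPKM in iPSC, 18.5 to 19.6 FPKM in D4_DUX, 21.8 to 23.4 FPKM in D4 and 13.6 to 15.0 FPKM in MEF libraries. Of the 4 markers that were tested, Mylpf, a myosin light chain, rose in iPSC against MEF (adjusted p = 6.5e-12), to 66.2 to 76.8 FPKM in iPSC, against 1.04 to 1.45 FPKM in MEF libraries. Des fell by 0.47 (adjusted p = 0.00065), and Acta1 and Tnnc1 were not called. Myod1 and Myf5 were under 3 fragments in all 4 groups, and the part of muscle markers in Cox7a1 was not tested. The widely expressed counterparts of these isoforms, Cox7a2, Cox6a1 and Cox8a, each rose in D4 against MEF, by 0.35 ± 0.07 (adjusted p = 0.001), 0.50 ± 0.06 (adjusted p = 1.8e-05) and 0.47 ± 0.05 (adjusted p = 5e-06).

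**Figure D3:**
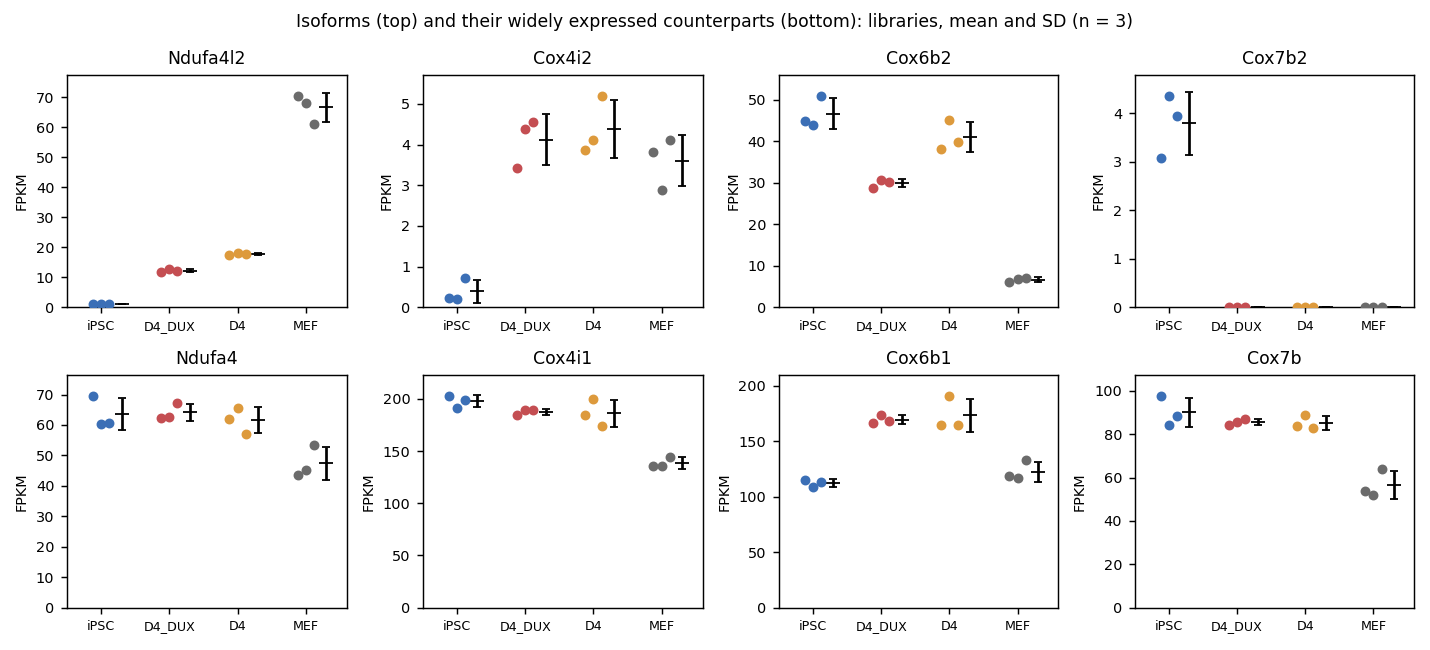
Points are FPKM of the 12 libraries on linear axes that start at 0, with the mean and SD (n = 3) beside each group; the upper row holds 4 isoforms and the lower row the widely expressed gene of each pair. Ndufa4l2 is lowest in iPSC, then D4_DUX, then D4, and highest in MEF, Cox6b2 is high in all groups but MEF, and Cox7b2 is above 0 in iPSC alone.

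**Figure D4:**
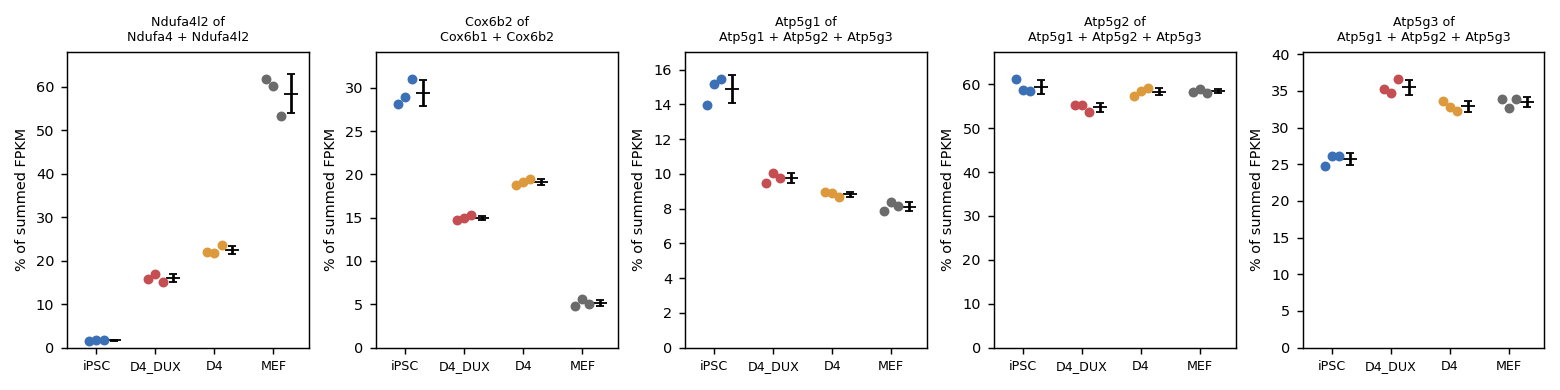
The y axis is the share of an isoform in the summed FPKM of its pair or family, in percent, with points for libraries and the mean and SD (n = 3). The share of Ndufa4l2 is 1.70% in iPSC and 58.5% in MEF, that of Cox6b2 is 29.4% in iPSC and 5.16% in MEF, and that of Atp5g1 is 14.9% in iPSC and 8.12% in MEF.

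In complex I, the members other than the Ndufa4 pair were grouped by where they sit: the NADH oxidation module and the quinone module of the matrix arm, and the membrane arm. In D4 against MEF, 6 of 8 members of the NADH oxidation module were higher and 1 lower, 5 of 8 of the quinone module were higher, and 14 of 19 of the membrane arm were higher and 1 lower. In iPSC against MEF these counts were 6 and 1, 6 and 0, and 13 and 1. Of all genes tested, 34.2% were higher in D4 against MEF and 51% in iPSC against MEF. The highest module median in iPSC against MEF was that of NADH oxidation, at 0.50.

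Ndufv1, which binds NADH and the flavin, had 38.0, 37.6 and 36.0 FPKM in iPSC, 24.4, 23.8 and 23.7 FPKM in D4_DUX, 23.5, 26.2 and 23.5 FPKM in D4, and 18.3, 19.7 and 21.4 FPKM in MEF libraries. The iPSC libraries stood apart and the day 4 groups overlapped. It rose by 0.88 ± 0.06 in iPSC against MEF (adjusted p = 2.6e-08) and by 0.59 ± 0.06 in iPSC against D4 (adjusted p = 1e-06). Its partner in the module Ndufv2, an iron-sulfur protein, rose by 0.70 ± 0.06 in iPSC against MEF (adjusted p = 6.9e-07), and the accessory subunit Ndufs6 rose by 0.77 ± 0.07 (adjusted p = 9e-07). Ndufv3, an accessory subunit of the same module, went the other way and fell by 0.50 ± 0.06 (adjusted p = 4.7e-06), with 14.0 to 14.8 FPKM in iPSC against 18.9 to 22.1 FPKM in MEF libraries.

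The largest single rises in complex I at day 4 were those of accessory subunits of the membrane arm. By module, the medians in D4 against MEF were 0.37 for the quinone module, 0.34 for the membrane arm and 0.23 for NADH oxidation. Ndufb4 had 23.1, 25.6 and 22.7 FPKM in D4, against 12.5, 13.6 and 14.9 FPKM in MEF libraries, and rose by 0.76 ± 0.06 (adjusted p = 5e-07). Ndufb6 had 50.8, 60.8 and 48.4 FPKM in D4, against 29.7, 31.4 and 32.0 FPKM in MEF libraries, and rose by 0.76 ± 0.10 (adjusted p = 5.6e-05). Neither gene's groups overlapped, and Ndufb6 shares 257 exon bases with Smim27 on the opposite strand. A near-identical annotated pseudogene of Ndufb4 averaged 4.43 FPKM, beside 20.95 FPKM for Ndufb4 itself, and how reads were divided between them is not given. Ndufa7, an accessory subunit of the quinone module, rose by 0.64 ± 0.09 (adjusted p = 4.8e-05), and Ndufa11 of the membrane arm rose by 0.62 ± 0.08 in D4 against MEF (adjusted p = 4.6e-05) and by 0.82 ± 0.08 in iPSC against MEF (adjusted p = 1.8e-06).

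Ndufs5, an accessory subunit of the membrane arm, had its low values at day 4. It had 48.4, 39.4 and 43.9 FPKM in iPSC, 21.2, 24.1 and 25.2 FPKM in D4_DUX, 23.1, 25.5 and 21.9 FPKM in D4, and 35.0, 37.8 and 39.2 FPKM in MEF libraries. It fell by 0.65 ± 0.08 in D4 against MEF (adjusted p = 4.2e-05) and was higher by 0.87 ± 0.08 in iPSC against D4 (adjusted p = 1.4e-06). A near-identical annotated pseudogene of Ndufs5 averaged 28.6 FPKM, beside 32.1 FPKM for Ndufs5 itself over the 12 libraries. No source used here says how reads were divided between the copies, so the Ndufs5 values are uncertain. Ndufa8, another membrane arm subunit, had the opposite course, with a rise of 0.43 ± 0.12 in D4 against MEF (adjusted p = 0.0072), where the groups overlapped, and a fall of 0.65 ± 0.12 in iPSC against D4 (adjusted p = 0.00027). Ndufa3 fell by 0.43 ± 0.06 in iPSC against D4 (adjusted p = 4.2e-05).

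In libraries labelled D4_DUX, Ndufb3 of the membrane arm and Ndufa9 of the quinone module were lower. Ndufb3 had 42.5, 45.5 and 43.8 FPKM in D4_DUX, against 50.8, 53.4 and 47.2 FPKM in D4 libraries, and fell by 0.19 ± 0.04 (adjusted p = 0.0054). Ndufa9 had 31.2, 32.7 and 32.5 FPKM in D4_DUX, against 35.7, 37.1 and 34.2 FPKM in D4 libraries, and fell by 0.15 ± 0.04 (adjusted p = 0.012). The groups did not overlap for either gene, where 50.5% of all genes tested had none in this comparison. Without the first D4_DUX library the adjusted p of Ndufa9 was 0.052.

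Complex II is also an enzyme of the tricarboxylic acid cycle, and all 4 of its genes were higher in D4 than in MEF. Sdha, the flavoprotein, had 70.0, 68.6 and 71.6 FPKM in iPSC, 68.3, 65.9 and 66.2 FPKM in D4_DUX, 67.2, 67.9 and 65.5 FPKM in D4, and 50.9, 49.5 and 51.0 FPKM in MEF libraries. All other libraries lay above the MEF libraries. In D4 against MEF, Sdha rose by 0.40 ± 0.03 (adjusted p = 2.9e-07), the iron-sulfur subunit Sdhb by 0.27 ± 0.06 (adjusted p = 0.0013), and the membrane anchors Sdhc by 0.50 ± 0.04 (adjusted p = 8.7e-07) and Sdhd by 0.45 ± 0.04 (adjusted p = 1.6e-06). Sdhc was the 1 gene of the 4 not called in iPSC against MEF. It had 21.5, 20.6 and 21.6 FPKM in iPSC, 29.7, 32.6 and 30.1 FPKM in D4_DUX, 31.8, 32.6 and 30.2 FPKM in D4, and 22.0, 21.4 and 22.4 FPKM in MEF libraries. It fell by 0.55 ± 0.04 in iPSC against D4 (adjusted p = 1.4e-07). Its iPSC against MEF difference of -0.05 ± 0.04 had an adjusted p of 0.32. It was called lower with an adjusted p of 0.00021 after median-ratio scaling and of 1.9e-05 after quantile normalization. None of the 4 genes was called in D4_DUX against D4, with differences between -0.09 and -0.00.

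Complex III split in iPSC. Its small subunit Uqcr10 and its core protein Uqcrc1 were higher in iPSC than in MEF by 1.08 ± 0.06 (adjusted p = 1.5e-08) and 0.97 ± 0.05 (adjusted p = 2.5e-09). Uqcr10 had 175, 146 and 151 FPKM in iPSC, 108, 113 and 108 FPKM in D4_DUX, 116, 119 and 113 FPKM in D4, and 68.8, 73.7 and 78.2 FPKM in MEF libraries. Uqcrc1 had 71.2, 67.9 and 72.9 FPKM in iPSC, 51.9, 52.2 and 52.4 FPKM in D4_DUX, 58.8, 61.0 and 55.2 FPKM in D4, and 33.4, 36.4 and 37.2 FPKM in MEF libraries. Both genes were thus highest in iPSC, between at day 4 and lowest in MEF. Uqcrc1 also fell by 0.16 ± 0.05 in libraries labelled D4_DUX against D4 (adjusted p = 0.024), without overlap, and lost this call when any 1 library of D4_DUX or the first or second D4 library was left out (adjusted p up to 0.086). Uqcrq, another small subunit, rose by 0.75 ± 0.07 in iPSC against MEF (adjusted p = 1.2e-06).

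Uqcrh, the hinge protein beside cytochrome c1, went down in iPSC. It had 33.2, 35.6 and 36.2 FPKM in iPSC, 65.8, 68.6 and 68.0 FPKM in D4_DUX, 70.2, 76.8 and 65.7 FPKM in D4, and 50.3, 52.8 and 54.7 FPKM in MEF libraries. It rose by 0.42 ± 0.06 in D4 against MEF (adjusted p = 4.2e-05), and fell by 1.00 ± 0.06 in iPSC against D4 (adjusted p = 7.6e-09) and by 0.57 ± 0.06 in iPSC against MEF (adjusted p = 1.3e-06). Uqcrfs1, the Rieske iron-sulfur protein, fell by 0.65 ± 0.08 in iPSC against D4 (adjusted p = 1.9e-05), with 27.8 to 35.1 FPKM in iPSC against 45.1 to 50.7 FPKM in D4 libraries. Uqcrc2 and Uqcr11 rose in D4 against MEF, by 0.44 ± 0.04 (adjusted p = 7e-07) and 0.61 ± 0.08 (adjusted p = 3.8e-05). Cyc1, cytochrome c1, is a subunit whose symbol lies outside the rule for members; it had 51.8 to 57.4 FPKM in iPSC, 32.1 to 35.3 FPKM in D4_DUX, 33.1 to 37.4 FPKM in D4 and 27.1 to 30.9 FPKM in MEF libraries.

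The promoters of Ndufb4, Sdha and Uqcrc1, which were higher at day 4 than in MEF, are shown because they hold the NRF1 letters more than once, marked with capitals together with the CCAAT letters. They were chosen for these matches and for their rise. Cox6a1, which also rose in D4 against MEF, holds the NRF1 letters 2 times too and is not shown. NRF1, nuclear respiratory factor 1, is known to bind promoters of respiratory chain genes. Ndufb4 (chr16:37654319-37654618, minus strand) and Sdha (chr13:74350191-74350490, minus strand) hold the NRF1 letters or their reverse complement 3 times each, and Uqcrc1 (chr9:108936398-108936697, plus strand) holds them 2 times.
Ndufb4: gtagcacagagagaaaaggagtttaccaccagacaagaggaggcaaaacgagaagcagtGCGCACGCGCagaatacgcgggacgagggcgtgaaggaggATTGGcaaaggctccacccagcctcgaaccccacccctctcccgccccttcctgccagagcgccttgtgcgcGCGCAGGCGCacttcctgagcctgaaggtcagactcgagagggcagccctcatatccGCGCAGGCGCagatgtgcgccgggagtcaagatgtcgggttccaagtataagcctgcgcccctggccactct
Sdha: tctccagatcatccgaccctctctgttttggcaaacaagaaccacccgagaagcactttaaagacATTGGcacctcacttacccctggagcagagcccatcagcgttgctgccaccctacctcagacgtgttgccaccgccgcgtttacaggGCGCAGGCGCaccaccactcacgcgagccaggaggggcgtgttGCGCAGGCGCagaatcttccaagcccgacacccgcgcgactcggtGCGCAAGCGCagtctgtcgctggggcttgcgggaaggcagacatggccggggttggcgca
Uqcrc1: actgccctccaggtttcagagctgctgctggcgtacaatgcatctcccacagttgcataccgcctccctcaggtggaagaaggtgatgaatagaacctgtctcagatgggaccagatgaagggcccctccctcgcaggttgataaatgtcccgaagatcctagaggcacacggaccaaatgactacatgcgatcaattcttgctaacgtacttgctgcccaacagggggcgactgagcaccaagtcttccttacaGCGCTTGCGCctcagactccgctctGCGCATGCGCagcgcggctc

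RefSeq windows were found for 66 of the 84 symbols. The NRF1 letters, on either strand, were in 16 of the 66 windows (24.2%), beside 7.5% of the 15136 protein-coding promoter windows of the same length. The ETS letters were in 22.7% and 13.4%, the YY1 letters in 12.1% and 3.5%, and the CCAAT letters in 43.9% and 38.5% of the windows of members and of all protein-coding genes. Windows of members had a median of 19 CpG and those of protein-coding genes 16. Of the 16 members with the NRF1 letters, 11 were higher in D4 against MEF (68.8%), near the 68.7% of all tested members. Ndufs5 and Atp5o were lower, and Atp5h, Atp5k and Ndufa5 were not called. These matches describe letters and not bound sites. The mRNA of Nrf1 itself had 6.91 to 7.48 FPKM in iPSC, 2.59 to 2.82 FPKM in D4_DUX, 2.24 to 2.37 FPKM in D4 and 2.92 to 3.44 FPKM in MEF libraries. It fell by 0.31 ± 0.06 in D4 against MEF (adjusted p = 0.00045) and rose by 1.00 ± 0.06 in iPSC against MEF (adjusted p = 7.6e-09).

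In complex IV, 9 of the 10 widely expressed subunits were higher in D4 than in MEF, beside 34.2% of all genes, with a median of 0.45. The exception, Cox5a, had a difference of 0.24 ± 0.11 (adjusted p = 0.084), and an adjusted p of 0.024 without the third MEF library. Cox5a and Cox5b, which sit on the matrix side, led in iPSC. Cox5a had 51.3, 38.5 and 39.3 FPKM in iPSC, 27.6, 29.6 and 31.2 FPKM in D4_DUX, 26.4, 27.6 and 25.4 FPKM in D4, and 19.6, 22.0 and 25.6 FPKM in MEF libraries. It rose by 0.91 ± 0.11 in iPSC against MEF (adjusted p = 1e-05) and Cox5b by 0.74 ± 0.09 (adjusted p = 1.5e-05). Cox6a1, with 240 to 271 FPKM in iPSC against 318 to 360 FPKM in D4 libraries, fell by 0.41 ± 0.06 in iPSC against D4 (adjusted p = 4.3e-05).

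Cox7a2l, the factor that joins complexes III and IV in a supercomplex, was lowest in iPSC and highest in MEF libraries. It had 58.3, 57.9 and 55.6 FPKM in iPSC, 63.5, 63.0 and 62.3 FPKM in D4_DUX, 71.7, 72.4 and 66.7 FPKM in D4, and 74.7, 75.8 and 72.9 FPKM in MEF libraries. The 4 groups did not overlap. It fell by 0.37 ± 0.04 in iPSC against MEF (adjusted p = 1.2e-06) and by 0.16 ± 0.04 in libraries labelled D4_DUX against D4 (adjusted p = 0.006). Its D4 against MEF difference of -0.08 ± 0.04 was not called (adjusted p = 0.065) and was called under 5 of the 17 alternatives. A near-identical pseudogene averaged 116.9 FPKM, beside 66.2 FPKM for Cox7a2l, so its values are uncertain in the same way as those of Ndufs5.

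Of the 5 complexes, the ATP synthase had the highest median difference in iPSC against D4, 0.40, though not in iPSC against MEF. Atp5a1 and Atp5b, the alpha and beta subunits of the catalytic head, had the smallest adjusted p of the ATP synthase genes in iPSC against D4. Atp5a1 had 376, 371 and 390 FPKM in iPSC, 205, 204 and 200 FPKM in D4_DUX, 218, 214 and 212 FPKM in D4, and 189, 191 and 192 FPKM in MEF libraries. Atp5b had 372, 369 and 384 FPKM in iPSC, 216, 219 and 216 FPKM in D4_DUX, 218, 220 and 211 FPKM in D4, and 174, 178 and 184 FPKM in MEF libraries. The iPSC libraries stood far above the rest, and most of the difference lay between day 4 and iPSC. In iPSC against D4, Atp5a1 rose by 0.82 ± 0.03 (adjusted p = 2.1e-10), Atp5b by 0.79 ± 0.03 (adjusted p = 5.6e-10) and Atp5c1, the gamma subunit of the central stalk, by 0.55 ± 0.04 (adjusted p = 1.9e-07).

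Not all head and stalk genes followed. Atp5d and Atp5e, the delta and epsilon subunits of the central stalk, fell in iPSC against D4 by 0.32 ± 0.08 (adjusted p = 0.002) and 0.32 ± 0.13 (adjusted p = 0.045). The call for Atp5e was lost under 6 of the 17 alternatives. In D4 against MEF both had risen, Atp5d by 0.34 ± 0.08 (adjusted p = 0.002) and Atp5e by 0.65 ± 0.13 (adjusted p = 0.0012). Subunits that stand in a fixed ratio in the enzyme thus had mRNAs that moved in opposite directions between D4 and iPSC.

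The peripheral stalk, which holds the head in place, did not rise at day 4. Of its 5 gene IDs, which hold Atp5o 2 times, 0 were higher and 2 lower in D4 against MEF, beside 34.2% and 27.6% of all genes. In iPSC, 5 of 5 were higher against MEF and against D4, beside 51% and 48.5% of all genes. Atp5f1, its b subunit, had 48.3, 51.6 and 50.8 FPKM in iPSC, 36.4, 37.5 and 36.8 FPKM in D4_DUX, 35.6, 38.6 and 34.3 FPKM in D4, and 36.8, 36.4 and 35.0 FPKM in MEF libraries. The iPSC libraries were apart and the other 3 groups overlapped. It rose by 0.46 ± 0.04 in iPSC against D4 (adjusted p = 8.8e-07), and Atp5h, the d subunit, by 0.42 ± 0.05 (adjusted p = 1.3e-05). Both lower calls in D4 against MEF were the IDs of Atp5o, the subunit that confers oligomycin sensitivity. One Atp5o ID fell by 0.14 ± 0.04 (adjusted p = 0.019) and the other by 0.19 ± 0.05 (adjusted p = 0.0071). The call of the first was lost under 3 of the 17 alternatives, with adjusted p of 0.053 to 0.081. The second, with the higher FPKM, is a readthrough annotation on chromosome 16 that shares 243 exon bases with the first and 287 with Donson, so the IDs are not separate subunits. With it left out, complex V had 17 IDs.

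Atp5g1, Atp5g2 and Atp5g3 encode an identical mature subunit of the c ring, and their shares of the summed FPKM differed between groups. Atp5g1 had 26.9, 26.3 and 27.5 FPKM in iPSC, 14.4, 16.2 and 15.4 FPKM in D4_DUX, 14.0, 15.2 and 13.4 FPKM in D4, and 9.86, 10.2 and 11.7 FPKM in MEF libraries. It rose by 1.27 ± 0.06 in iPSC against MEF (adjusted p = 3.5e-09) and by 0.88 ± 0.06 in iPSC against D4 (adjusted p = 9.9e-08), the largest difference of any ATP synthase gene in both. Atp5g2 rose by 0.49 ± 0.07 in iPSC against MEF (adjusted p = 3.6e-05), and Atp5g3 was not called there, at 0.09 ± 0.07 (adjusted p = 0.23). The share of Atp5g1 in the 3 genes was 14.9% in iPSC, 9.76% in D4_DUX, 8.83% in D4 and 8.12% in MEF libraries, and that of Atp5g3 was 25.7%, 35.5%, 32.9% and 33.5% in the same order. Atp5g2 made up the most in every group, between 54.8% in D4_DUX and 59.4% in iPSC libraries. These shares depend on annotated exon length, 4912 bases for Atp5g1, 1675 for Atp5g2 and 2181 for Atp5g3. Mean fragments in iPSC libraries were 3281.5, 4476.8 and 2516.9 in that order, so Atp5g1 was above Atp5g3 on that scale. In MEF libraries they were 1297.4, 3178.5 and 2378.2. In D4_DUX against D4 the shares of all 3 genes were free of overlap, with exact permutation p of 0.1, while none of the 3 genes was called. The 3 shares are parts of 1 sum in each library, so they are not separate results. In FPKM, 50.5% of all genes tested had no overlap in this comparison.

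Of the other membrane subunits, Atp5j2 was the only member called higher in libraries labelled D4_DUX. It had 23.8, 26.6 and 24.8 FPKM in D4_DUX, against 22.6, 23.5 and 21.0 FPKM in D4 libraries, a rise of 0.16 ± 0.05 (adjusted p = 0.023) that was lost under 6 of the 17 alternatives. Atp5mpl fell by 0.36 ± 0.07 in iPSC against D4 (adjusted p = 0.00029). Atp5s, a coupling factor outside the core enzyme, had 3.47 to 4.03 FPKM in iPSC against 1.51 to 2.52 FPKM in D4 libraries, a rise of 0.67 ± 0.11 (adjusted p = 0.00014).

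**Figure D5:**
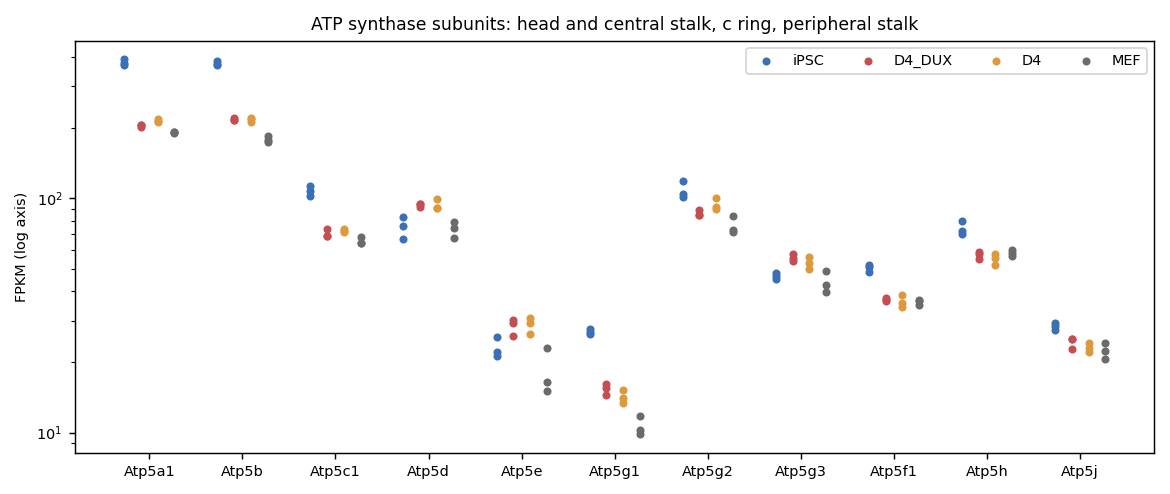
Points are FPKM of each library on a log axis, for 11 ATP synthase genes ordered as head and central stalk (Atp5a1 to Atp5e), c ring (Atp5g1 to Atp5g3) and peripheral stalk (Atp5f1 to Atp5j), with the groups side by side. iPSC libraries lie above all others for Atp5a1, Atp5b, Atp5c1, Atp5g1, Atp5g2, Atp5f1, Atp5h and Atp5j, and below all D4 libraries for Atp5d, Atp5e and Atp5g3.

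Genes that work with the complexes were described from lists beside the members. Their counts are read against the shares of all genes tested. In iPSC against MEF 51% of all genes were higher and 31.2% lower, in D4 against MEF 34.2% and 27.6%, and in D4_DUX against D4 20.1% and 15.4%. The medians of all genes in these comparisons were 0.21, 0.03 and 0.02. Complex I assembly factors were higher in iPSC than in MEF in 16 of 17, with a median of 0.55, and in libraries labelled D4_DUX than in D4 in 5 of 17, with 0 lower and a median of 0.07. Ndufaf4 had 8.30 ± 0.58 FPKM in iPSC and 2.17 ± 0.16 FPKM in MEF libraries (SD, n = 3), a rise of 1.55 ± 0.06 (adjusted p = 3.3e-10). Tmem126b rose by 0.28 in libraries labelled D4_DUX against D4 (adjusted p = 0.00073). Complex IV assembly factors were higher in iPSC against MEF in 18 of 23 and lower in 2. In libraries labelled D4_DUX they were higher than in D4 in 7 of 23, with 0 lower and a median of 0.10. Lrpprc, which stabilizes mitochondrial mRNAs, had 17.1 ± 1.1 FPKM in iPSC and 4.49 ± 0.11 FPKM in MEF libraries, a rise of 1.72 (adjusted p = 1.4e-11). Higd1a, which is also in the hypoxia list, rose by 0.52 in libraries labelled D4_DUX against D4 (adjusted p = 0.0029).

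Of the 4 complex II factors, 3 were higher in iPSC against MEF, and Sdhaf2 was higher by 0.28 in libraries labelled D4_DUX against D4 (adjusted p = 0.002). Of the 6 complex III factors, 4 were higher in iPSC against MEF and 5 in D4 against MEF. Sdhaf3 of the complex II list and Lyrm7 of the complex III list reached the filter through iPSC libraries alone. Their direction adds no support to the counts in iPSC against MEF. Of the 4 complex V factors, 3 were higher in iPSC against MEF, among them Atpaf1 by 1.29 (adjusted p = 7.6e-09).

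Electron carriers and enzymes that feed the chain were higher in 14 of 18 and lower in 1 in iPSC against MEF, and higher in 12 and lower in 1 in D4 against MEF. The list's medians were 0.62 and 0.31, beside 0.21 and 0.03 for all genes, of which 51% and 34.2% were higher. Cyct, the testis cytochrome c, had 39.97 to 43.0 FPKM in iPSC libraries and was listed at 0 in all 9 other libraries, the same distribution over groups as Cox7b2. Cyct thus reached the filter through iPSC libraries alone, and its direction adds no support to the list's count in iPSC against MEF. The somatic gene Cycs had 23.4 to 24.3 FPKM in iPSC, 16.1 to 17.3 FPKM in D4_DUX, 14.9 to 17.6 FPKM in D4 and 14.7 to 15.3 FPKM in MEF libraries. The ADP/ATP carrier genes also exchanged. The testis form Slc25a31 had 5.09 to 5.97 FPKM in iPSC and at most 0.217 FPKM elsewhere. Slc25a5, the form of growing cells, rose by 1.11 in iPSC against MEF (adjusted p = 5e-09), and the heart and muscle form Slc25a4 fell by 0.86 (adjusted p = 9.2e-08), with 68.8 to 81.2 FPKM in iPSC against 128 to 145 FPKM in MEF libraries. Gpd2, the mitochondrial glycerol phosphate dehydrogenase, rose by 1.33 in iPSC against MEF (adjusted p = 6.4e-11), and the uncoupling protein gene Ucp2 by 1.31 (adjusted p = 1.5e-09). In libraries labelled D4_DUX, Coq10b, a coenzyme Q binding protein, fell by 0.41 against D4 (adjusted p = 5.2e-05).

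Regulators of mitochondrial biogenesis were higher in iPSC than in MEF in 13 of 13 tested, with a median of 0.88, while in D4 against MEF 3 were higher and 5 lower, with a median of 0.02. Of all genes, 51% were higher in the first comparison, and 34.2% were higher and 27.6% lower in the second. Esrrb and Ppargc1b, at most 0.0369 and 0.515 FPKM in any other library, reached the filter through iPSC libraries alone. The filter thus settled their direction, and they add no support to the count or the median, which include them. Tfam, the factor of mitochondrial transcription and DNA packaging, had 14.1 to 15.1 FPKM in iPSC, 5.93 to 6.32 FPKM in D4_DUX, 4.83 to 5.20 FPKM in D4 and 5.33 to 6.26 FPKM in MEF libraries. Esrrb, a nuclear receptor that is also a pluripotency marker, had 69.3 to 78.1 FPKM in iPSC libraries. Gabpa, the DNA-binding part of NRF2, rose by 0.98 in iPSC against MEF (adjusted p = 2.2e-09). Ppargc1a, the coactivator PGC-1 alpha, was at most 0.151 FPKM in any library and was not tested. Hypoxia response genes, among which Ndufa4l2 is often counted, were lower in 13 of 15 in D4 against MEF with 0 higher, and lower in 12 and higher in 2 in iPSC against MEF. Lower calls took 27.6% and 31.2% of all genes in these comparisons. Hif1a fell by 1.12 in D4 against MEF (adjusted p = 2.2e-10) and Bnip3, a mitophagy receptor, fell by 3.61 in iPSC against MEF (adjusted p = 1.3e-12). In libraries labelled D4_DUX against D4, 4 of the 15 hypoxia genes were higher and 4 lower, with a median of 0.00, beside 20.1% and 15.4% of all genes. Adm, a secreted peptide hormone, fell by 1.07 there (adjusted p = 8e-07) and Ndrg1 by 0.69 (adjusted p = 7.5e-06). Hif1a fell by 0.43 there (adjusted p = 6.7e-06) and Epas1, the related factor HIF-2 alpha, rose by 0.47 (adjusted p = 0.00012). Ndufa4l2 fell in the same comparison, and a link between it and these genes was not tested.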

How the data were processed

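The authors deposited 1 table of FPKM, fragments per exon length and library size, for 12 libraries and 40384 Ensembl IDs, of which 40225 (99.6%) matched GENCODE M21 (GRCm38). Per the labels' protocols, libraries were stranded and poly(A)-selected, with paired reads. The build was mm10, per the submitters' processing notes. No source used here names the aligner, the counter or its use of strand. Long annotated exons, as in Ndufb2, Atp5g1 and Atp5l, lower a gene's FPKM.

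Depth was recovered from the steps of low FPKM values: 52.8 to 55.0% were whole multiples and 74.2 to 76.2% multiples of 0.5, within a tolerance of 0.01, so no count test was made the main result. Floors and intervals of this kind cover counting error only. No columns were identical (0 of 66 pairs), and Pearson's r within groups lay between 0.9902 and 0.9957.

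A limma model (3.58.1, R 4.3.3) with 4 group means was fitted to log2(FPKM + 1) of the 17114 genes that reached FPKM 1 in 3 or more libraries; log2 fold changes of low genes are understated. Isoform shares were compared with exact two-sided permutation tests. Of 85 members, 22 have an annotated pseudogene transcript at 95% identity over at least 150 bases (blastn 2.17.0). The fit was tested on simulated data. Alternatives were pseudocounts of 0.1 and 0.5, filters, protein-coding genes alone, scalings, TPM, voom on recovered fragments, fewer groups, the readthrough Atp5o ID left out (chosen after seeing the data), a replicate block and leaving out libraries. The labels do not say that replicates were separate cultures, so p-values may measure technical spread. The values of 1 complex I member, which stays in all counts, are not reported here. Members and lists were chosen with earlier results of these data known. Named were isoforms, Sdh genes, and up to 3 called members at each end per complex and comparison. Up to 4 genes of each other list with the smallest adjusted p were also named. Outside this rule Atp5c1, Atp5f1, Atp5h, Atp5j, Atp5s, Ndufv2, Uqcrc2, Cyc1, Cycs, Ppargc1a, Ppargc1b, Dcn, Prm1, Tnp1 and 3 other markers near 0 were named after their values were seen.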

Additional observations from a re-analysis of the deposited data

How the results depend on the processing

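Of the members' calls, 4 of 7 in D4_DUX against D4, 52 of 62 in D4 against MEF, 46 of 68 in iPSC against MEF and 40 of 55 in iPSC against D4 were kept under every alternative run. The scaling moved most. Median-ratio scaling gave 0 higher members in D4_DUX against D4, 9 lower in D4 against MEF and 18 lower in iPSC against MEF; quantile normalization gave 0 and 16 for the first and the last; fitting only the 2 groups gave 0 higher members in D4_DUX against D4. Small iPSC against MEF differences turned negative: under median-ratio scaling Atp5d (-0.17), Atp5l (-0.0082), Ndufa1 (-0.034), Ndufb7 (-0.0089), Ndufs3 (-0.035) and Sdhb (-0.035), and under quantile normalization Atp5l (-0.11), Cox7a2 (-0.011), Ndufa1 (-0.011), Ndufb7 (-0.10), Ndufs3 (-0.073), Ndufs5 (-0.00020) and Sdhb (-0.084); in iPSC against D4 Atp5l was -0.15 under quantile normalization. The cause was not tested. A filter at FPKM 5 tests fewer genes and gave 3087 lower genes in D4 against MEF, 5570 higher in iPSC against MEF and 5183 higher in iPSC against D4; without a filter the last pair was 13451 and 13062.

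Leaving out 1 library gave 0 to 1 higher and 4 to 6 lower members in D4_DUX against D4, 52 to 61 and 4 to 7 in D4 against MEF, 53 to 64 and 6 to 8 in iPSC against MEF, and 27 to 36 and 20 to 29 in iPSC against D4. Deviations of same-numbered libraries had r between -0.15 and 0.06, and those of other-numbered libraries r between -0.13 and 0.22. With 3 libraries per group these values cannot show whether the numbers pair the libraries. With a replicate block 1 and 6, 54 and 6, 59 and 7, and 30 and 22 members were higher and lower, with the comparisons in the same order. Depth limits Cox6a2, Cox7a1, Cox8b and Cox8c.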
